A study of Mus musculus with 27 samples.

Results

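The 6 genes described here, Glycam1, Selplg, Fut7, Chst4, Selp and Sele, encode selectins or make their ligands, and were chosen as all mouse probe sets on the array that carry one of these gene symbols. They were measured by 8 probe sets out of 702 mouse probe sets and made up 6 of the 573 mouse genes compared. Glycam1 and Selp had 2 probe sets each, and the other 4 genes had 1 each. Transcripts were measured in total RNA of lymph node, bone marrow, spleen, thymus, lung, brain, testis, kidney and liver from wild-type male mice of the inbred C57BL/6 strain, 6 to 8 weeks old, with no treatment named in the labels. Each tissue had 3 arrays, 27 in all, of a custom 1-colour Affymetrix design for glycan-related genes, and the study asked how these genes differ in transcript level among tissues.

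Selectins are membrane lectins with which leukocytes, platelets and endothelial cells hold on to each other in flowing blood. They bind a sialylated and fucosylated tetrasaccharide, sialyl Lewis x, when it is displayed on a suitable carrier protein. Selplg encodes PSGL-1, the mucin-like P-selectin ligand of leukocytes, and Glycam1 encodes a secreted mucin-like protein that carries L-selectin ligands of high endothelial venules, the vessels through which lymphocytes enter lymph nodes. Fut7 encodes the alpha1,3-fucosyltransferase that completes sialyl Lewis x. Chst4 encodes a sulfotransferase of high endothelial venules that adds 6-sulfate to N-acetylglucosamine and so makes L-selectin ligands. Selp encodes P-selectin, which is stored in granules of platelets and endothelial cells, and Sele encodes E-selectin, which endothelium makes on inflammatory stimulation.

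The deposited values are linear intensities, which rank arrays for one probe set and do not compare one gene with another. A total of 839 human probe sets on the same arrays gave a rough measure of cross-species background, with a median of 205.2 and 95% of values under 590.1 (the 95th percentile), while the mouse gene median was 296.8. Where one of the levels compared lies in that range, the fold compares signals and is inexact for transcripts. Array medians ran from 221.5 to 243.7, and for 27 of 27 arrays the closest other array came from the same tissue. The labels do not tell whether replicate arrays stand for separate animals, so p-values measure only the spread between these arrays, whose number limits the precision. A gene was called where limma gave an adjusted p under 0.05 over all 573 genes and a log2 difference of at least 1 in size. Where arrays are said to lie above all others, without overlap, the share of all genes with such a gap was not counted. In whole tissue, fewer cells of a type and less RNA per cell cannot be told apart.

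Promoter sequences are given for Glycam1 and Chst4, whose lymph node arrays lay above all other arrays, and, as a gene with nearly the same signal everywhere, for Sele. They are the 250 bases before the annotated start, read 5′ to 3′ on the gene's own strand, from RefSeq on GRCm38.p6, and 5 of the 6 genes had an entry, Selplg being the one without. Capitals mark matches to 3 motifs searched on both strands, with N any base: TATAAA (the TATA box), TGANTCA (an AP-1-type site) and GGANNTTCC (an NF-kB-type site).
Glycam1, chr15:103565082-103565331, minus strand: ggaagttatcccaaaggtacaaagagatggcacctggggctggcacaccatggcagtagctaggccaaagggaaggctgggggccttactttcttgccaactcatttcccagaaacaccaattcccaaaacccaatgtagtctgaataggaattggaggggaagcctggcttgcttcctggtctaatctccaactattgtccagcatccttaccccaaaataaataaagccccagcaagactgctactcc
Chst4, chr8:110039335-110039584, minus strand: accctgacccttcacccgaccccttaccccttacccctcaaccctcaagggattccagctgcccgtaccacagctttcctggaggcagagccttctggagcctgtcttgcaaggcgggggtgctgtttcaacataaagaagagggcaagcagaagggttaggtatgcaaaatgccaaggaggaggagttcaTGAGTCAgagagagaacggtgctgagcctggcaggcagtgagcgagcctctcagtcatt
Sele, chr1:164047984-164048233, plus strand: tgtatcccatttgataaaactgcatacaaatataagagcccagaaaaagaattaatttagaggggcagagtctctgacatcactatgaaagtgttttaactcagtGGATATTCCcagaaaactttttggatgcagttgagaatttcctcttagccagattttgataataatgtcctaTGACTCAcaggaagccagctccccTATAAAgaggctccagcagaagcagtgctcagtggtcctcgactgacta
The Glycam1 window held no match. The Chst4 window held TGAGTCA at -59 to -53, counted back from the start. The Sele window held GGATATTCC at -145 to -137, TGACTCA at -73 to -67 and TATAAA at -49 to -44, and no matches overlapped. Of the genes not printed, Selp held TGATTCA at -139 to -133 and Fut7 held no match. Over 32851 mouse promoter windows of the same length, 12.4% held TATAAA, 6.75% TGANTCA and 3.59% GGANNTTCC, so that a match describes the letters and is no evidence of a bound factor.

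Among the 9 tissues, both carriers and Fut7 were called by limma's moderated F test, which asked for tissue means spread over 1 or more on the log2 scale, and Chst4, Selp and Sele were not called. That is 3 of 6 genes, beside 50.1% of all 573 genes, so the share of the 6 is that of the array. The ranges were wide for the carriers, 4.32 for Glycam1 (adjusted p = 1.70e-17) and 3.63 for Selplg (adjusted p = 9.29e-18), and ranked them 32 and 59 among 573 genes. The enzymes lay in the middle, at 1.01 for Fut7 (adjusted p = 3.06e-07) and 0.93 for Chst4 (adjusted p = 2.47e-04). The selectins lay near the bottom, at 0.39 for Selp (adjusted p = 0.0198, rank 512) and 0.42 for Sele (adjusted p = 0.00865, rank 500). The median range of the 6 was 0.97, against 1.003 over all genes.

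**Figure D1:**
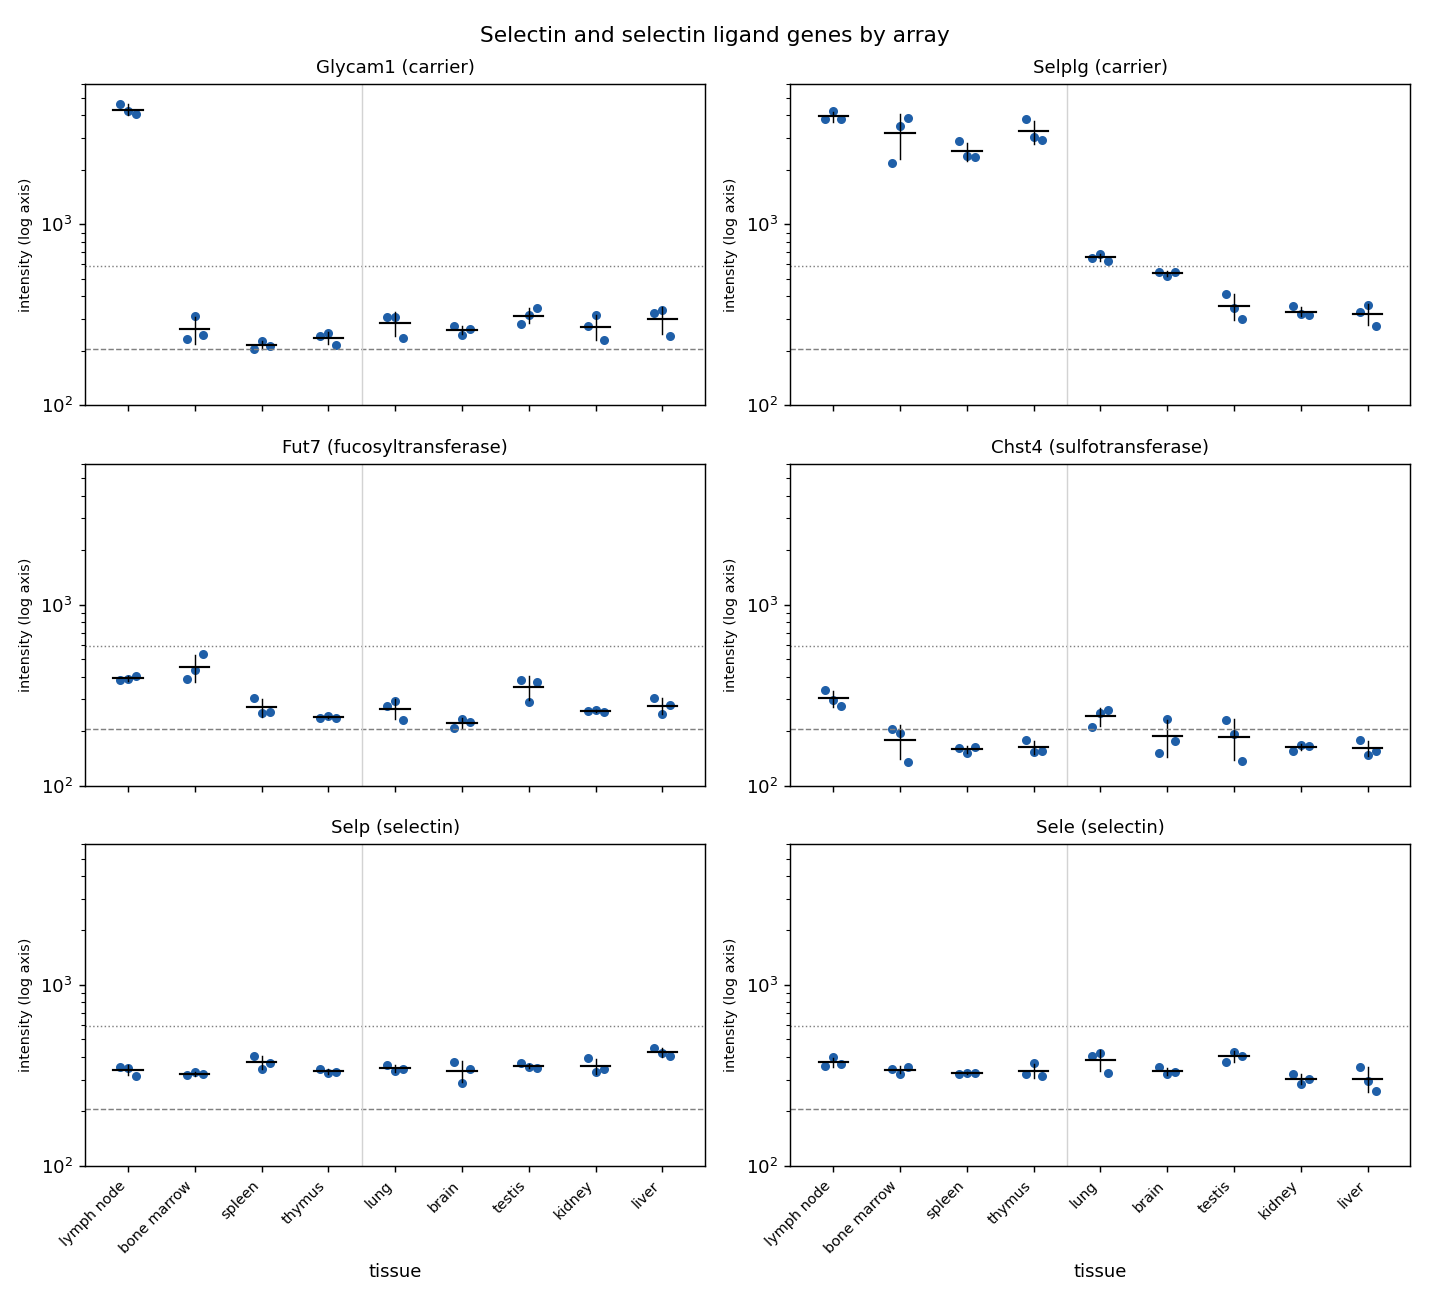
Deposited intensity (log axis) of the 6 genes on each of 27 arrays, by tissue. Points are arrays, bars the mean and SD of 3 arrays, the dashed line the human probe set median of 205.2 and the dotted line their 95th percentile of 590.1. Glycam1 stands apart in lymph node and Selplg in lymph node, bone marrow, spleen and thymus, while the other 4 genes stay under the dotted line on every array.

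Glycam1 was high in lymph node and at background-like signal elsewhere. Its intensity was 4638, 4218 and 4063 on the lymph node arrays, and the other 24 arrays ran from 205.3 to 343.2 with a median of 256.8. The lymph node arrays lay above every array of the other tissues, and above 99.6% to 99.8% of human probe sets. Lymph node averaged 4306 ± 298 (SD, n = 3), and was followed by testis at 313.4 ± 30.1, with spleen the lowest at 215.6 ± 11.4. Against the mean of the other 8 tissues, Glycam1 in lymph node was higher by 4.02 ± 0.11 on the log2 scale (SE), or 16.2-fold (limma adjusted p = 6.28e-20). In that comparison 11% of all genes were called higher, and Selplg was the only other called gene of the 6. Lymph node exceeded each of the other 8 tissues when taken pair by pair, by 13.8-fold over testis to 20.0-fold over spleen, and 16.3% of all combinations of gene and pair with lymph node were called.

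The second Glycam1 probe set, gave the same order of lymph node over the rest with a smaller difference. It read 1875, 1699 and 1437 in lymph node, against 230.2 to 327.8 on the other 24 arrays, again without overlap. The log2 difference was 2.60 with this probe set, against 4.02 with the brighter one, so the size of the lymph node excess depends on the probe set. The tissue means of the 2 sets correlated with r = 0.996 over 9 tissues, a value that rests on lymph node. Among the other 8 tissues no Glycam1 pair reached the size threshold. Testis, liver and lung over spleen, and testis over thymus, passed on p alone.

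Some markers of high endothelial venules and lymphoid stroma were high in lymph node and spleen, and 1 of them in thymus. Glycam1 was lowest in spleen and thymus on its brighter probe set. Of these 5 markers 3 were measured, and their summed intensity was 12476 to 14285 in lymph node, 7088 to 9759 in spleen, 4943 to 7672 in thymus and 605.1 to 2778 in the other 6 tissues. Cxcl13, the B cell follicle chemokine, was 20.6-fold and Ccl21b, a chemokine that draws T cells and dendritic cells, 10.6-fold higher in lymph node than in the other 8 tissues. In spleen Cxcl13 was 16.5-fold and Ccl21b 4.99-fold higher, and in thymus Ccl21b was 5.78-fold higher, all called. Cxcl13 was lower in thymus by less than the size threshold (-0.70 ± 0.11). Madcam1, an addressin of mucosal venules, was not called in lymph node (0.13 ± 0.07), spleen (0.41 ± 0.07) or thymus (-0.07 ± 0.07). The 6 measured endothelial markers summed to 3249 to 3670 in lymph node and to 15622 to 20120 in lung, where Glycam1 averaged 283.7 ± 43.1. The part of these cells in the Glycam1 values was not tested.

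**Figure D2:**
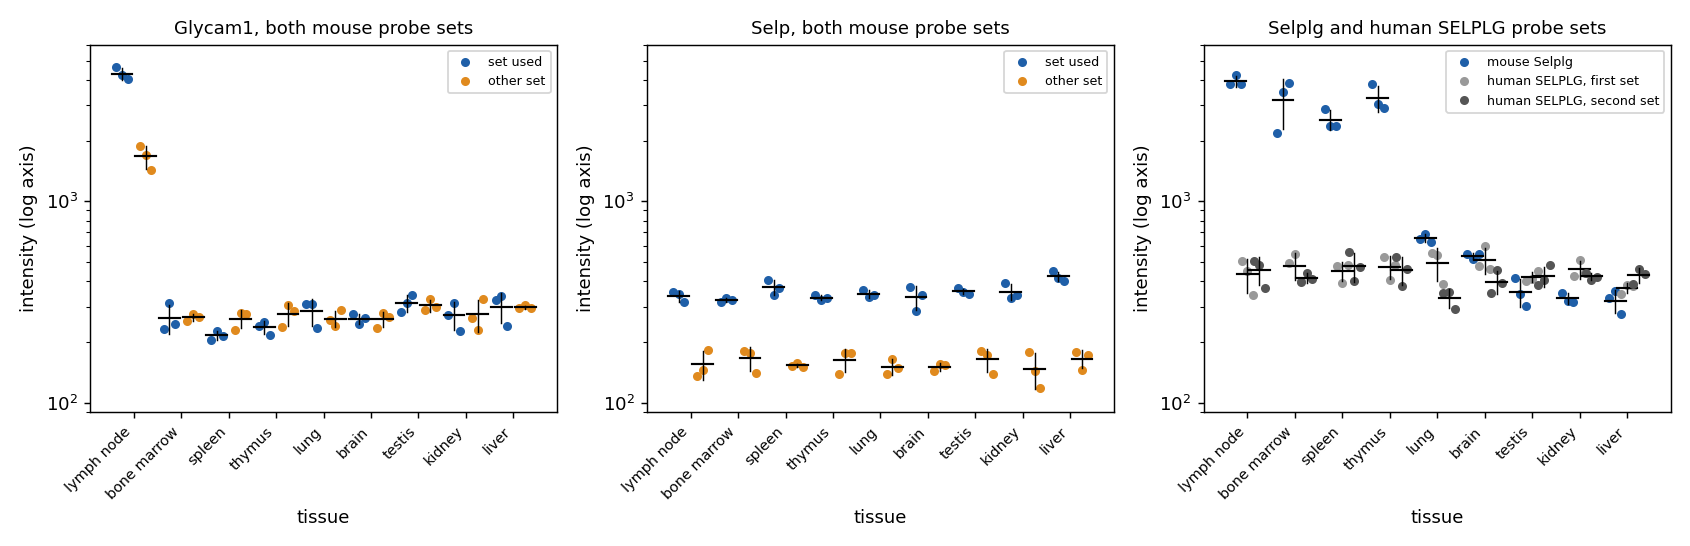
Intensity (log axis) by tissue for both Glycam1 probe sets, both Selp probe sets, and the mouse Selplg probe set with the 2 human SELPLG probe sets; points are single arrays and bars the mean and SD of 3. Both Glycam1 sets rise in lymph node, the Selp sets follow no shared order, and the human SELPLG sets do not share the rise of the mouse set.

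Selplg was high in the 4 lymphoid and blood-forming tissues. It read 3813, 4244 and 3807 in lymph node, 3820, 3051 and 2919 in thymus, 2185, 3491 and 3872 in bone marrow and 2873, 2379 and 2362 in spleen. In lung it read 652.9, 686.5 and 630.9, in brain 548.5, 515.9 and 546.5, in testis 414.8, 346.1 and 301.7, in kidney 352.2, 320.1 and 317.1, and in liver 328.9, 356.5 and 275.4. The 12 lymphoid arrays, 2185 to 4244, lay above all 15 others, 275.4 to 686.5, and above 99.2% to 99.6% of human probe sets. The lymphoid tissues were higher than the other 5 by 2.91 ± 0.08 on the log2 scale, or 7.54-fold (limma adjusted p = 3.85e-20). Selplg was the 1 gene of the 6 called in that contrast, in which 10.8% of all genes were called higher and 2.62% lower.

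Each tissue taken against the mean of the other 8 gave Selplg 8 calls, the most of the 6 genes. It was higher in lymph node (2.18 ± 0.12, 4.54-fold), thymus (1.86, 3.63-fold), bone marrow (1.78, 3.45-fold, with 1 array well under the other 2) and spleen (1.46, 2.75-fold). It was lower in liver (-1.90, 3.74-fold), kidney (-1.85, 3.60-fold), testis (-1.75, 3.35-fold) and brain (-1.06, 2.08-fold), and the largest adjusted p among these 8 contrasts was 5.30e-08. Lung was lower by less than the size threshold (-0.73, adjusted p = 1.89e-05). The shares of all genes called in the same direction were 11% in lymph node, 5.41% in thymus, 5.76% in bone marrow and 9.77% in spleen, and 8.9% in liver, 6.11% in kidney, 13.3% in testis and 10.3% in brain. In the opposite direction, the shares of all genes were 0.698% in lymph node, 1.4% in thymus, 3.84% in bone marrow and 1.05% in spleen, and 4.71% in liver, 6.46% in kidney, 3.14% in testis and 4.54% in brain. In lung 8.9% of all genes were called higher and 1.05% lower. The brain call was lost with quantile normalization (-0.79). Together with the lymph node call of Glycam1, these were the 9 called out of 54 combinations of gene and tissue.

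Placed in order, the Selplg means fell into a high and a low step. They were 3955 ± 251 in lymph node, 3263 ± 486 in thymus, 3183 ± 885 in bone marrow and 2538 ± 290 in spleen, and then 656.8 ± 28.0 in lung, 537.0 ± 18.3 in brain, 354.2 ± 57.0 in testis, 329.8 ± 19.5 in kidney and 320.3 ± 41.2 in liver. Spleen exceeded lung, its neighbour in the order, by 1.95 ± 0.16, or 3.85-fold (limma adjusted p = 2.18e-10), and this was the 1 called step between neighbours, in a pair where 16.8% of all genes were called. Lymph node over thymus (adjusted p = 0.228), thymus over bone marrow (0.815), bone marrow over spleen (0.173), lung over brain (0.140), testis over kidney (0.696) and kidney over liver (0.889) were not separated beyond the spread. Brain over testis passed on p (0.00335) at 1.53-fold. Over all pairs, lung exceeded liver by 2.06-fold and was called, beside 18.8% of all genes in that pair, and 21 of 36 pairs were called, where 16.2% of all combinations of gene and pair were.

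Of the leukocyte marker lists, only the T cell one had a summed intensity higher on every array of those 4 tissues than elsewhere. Such a sum leans on the brightest probe sets, and for T cells rests on 2 markers of 6, so it does not rank the lists. Taken singly, 2 of 2 T cell and 3 of 4 B cell markers were called higher in the lymphoid contrast. So were 3 of 4 macrophage and monocyte and 1 of 6 neutrophil markers, beside 10.8% of all genes. Cd22, the B cell marker not called, differed by 0.63. The 2 measured T cell markers of 6, Il7r and Ccr7, summed to 1057 to 5131 in the lymphoid tissues and to 401.3 to 726.0 in the other 5. Against the other 8 tissues, neither was called in bone marrow (Il7r 0.45, Ccr7 -0.22) or in thymus (Il7r 0.94, Ccr7 0.96). The 4 measured B cell markers of 5 summed to 5271 to 8981 in the lymphoid tissues, against 2360 to 5899 in the other 5, and so overlapped. The overlap lay in lung (4686 to 5899). There Cd72 (-0.84), Fcer2a (-0.76) and Cxcr5 (-1.01) were below the other 8 tissues, and Cd22 differed by 0.31. The 4 measured macrophage and monocyte markers of 6 summed to 960.7 to 5450, against 173.1 to 1956, and overlapped, with thymus at 960.7 to 1311 and lung at 1294 to 1956. The 6 measured neutrophil markers summed to 18599 to 20876 in bone marrow and to 2131 to 4144 in the other 8 tissues. The part of cell makeup in the Selplg values was not tested. The 2 human SELPLG probe sets read 341.7 to 545.1 and 372.3 to 557.7 on the lymphoid arrays and 348.0 to 596.9 and 290.8 to 479.9 on the others, so that the groups overlapped on both.

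**Figure D3:**
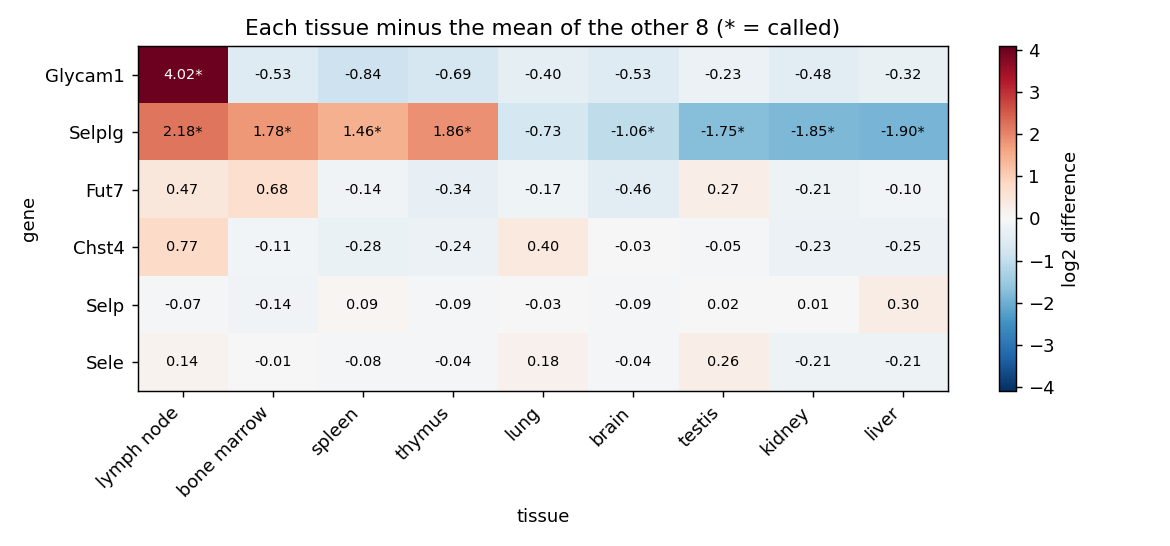
Log2 difference of each tissue minus the mean of the other 8 for the 6 genes, by colour and number, with an asterisk where called. Only Glycam1 and Selplg have called cells, and Selplg has 8 of the 9.

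Fut7 was highest in bone marrow and lymph node, with small differences at low signal. It read 386.1, 433.3 and 535.5 in bone marrow, 383.4, 386.4 and 405.5 in lymph node and 385.0, 290.8 and 373.8 in testis. The other 18 arrays, of the remaining 6 tissues, averaged by tissue between 276.9 ± 27.3 in liver and 221.9 ± 13.5 in brain. Bone marrow and lymph node arrays overlapped each other, and the lowest of the 6 still lay below the highest testis array. Bone marrow arrays stood above 84.9% to 94.3% of human probe sets, and no Fut7 value passed the 95th percentile of 590.1. The neutrophil marker sum was highest in bone marrow too (18599 to 20876, against 2131 to 4144 in the other 8 tissues). In lymph node, next in order for Fut7, it was 2971 to 3418. Of the 6 markers 3 were called higher in bone marrow, beside 5.76% of all genes, with Ltf at 54.3-fold. Clec5a (0.92), Siglece (0.69) and Cd33 (0.57) were not called there. The part of these markers' cells in the Fut7 values was not tested.

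Bone marrow exceeded the mean of the other 8 tissues by 0.68 ± 0.09 on the log2 scale for Fut7, or 1.61-fold (limma adjusted p = 1.20e-06), and lymph node by 0.47 ± 0.09, or 1.38-fold (adjusted p = 1.69e-04), both under the size threshold. The 1 called pair of 36 was bone marrow over brain, at 1.01 ± 0.12 or 2.02-fold (adjusted p = 1.80e-07), where 19% of all genes were called, and 20 pairs passed on p. Bone marrow over lymph node (adjusted p = 0.243) and lymph node over testis (0.233) were not separated. Thymus, at 239.1 ± 4.1, lay among the low tissues for Fut7, although Selplg was high there. The F call of Fut7 rested on a range just past 1, and was lost without bone marrow replicate 3 (0.88), without brain replicate 1 (0.97), with an offset of 16 (0.96), with quantile normalization (0.99) and with array weights (0.9982). The human FUT7 probe set was highest in brain (191.4 ± 25.96) and read 161.2 ± 28.7 in bone marrow.

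Chst4 was highest in lymph node, again at low signal. It read 337.3, 297.7 and 275.2 there and 134.7 to 262.5 on the other 24 arrays, with no overlap. Lung followed at 210.0, 252.5 and 262.5, and spleen was lowest at 161.7, 150.9 and 162.5. Lymph node averaged 303.4 ± 31.4, lung 241.7 ± 27.9, and the other 7 tissues 158.3 ± 6.5 to 187.1 ± 42.6. The lymph node arrays lay above 74.3% to 81.8% of human probe sets and the lung arrays above 54.0% to 67.6%, which is inside the cross-species background.

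Against the other 8 tissues, Chst4 in lymph node differed by 0.77 ± 0.13 on the log2 scale, or 1.71-fold (limma adjusted p = 2.66e-05), and in lung by 0.40 ± 0.13, or 1.32-fold (adjusted p = 0.0124), and neither reached the size threshold. No Chst4 pair was called, and the 12 pairs that passed on p were lymph node over 7 tissues and lung over 5. Lymph node over lung was not separated (adjusted p = 0.133). The spread between arrays was wider for Chst4 than for the other 5 genes, with a residual SD of 0.21 on the log2 scale beside a median of 0.17 over all genes. The human CHST4 probe set was lowest in lymph node (261.0 ± 23.5) and highest in testis (332.4 ± 30.4).

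The probe sets of the selectins themselves gave nearly the same signal in all tissues, within the cross-species background on every array, so that these values do not settle how the transcripts vary. Selp ran from 286.3 to 448.9 over all 27 arrays, with 448.9, 418.1 and 403.2 in liver and 316.0, 330.5 and 321.5 in bone marrow, the highest and lowest tissues. The liver arrays overlapped those of spleen, which reached 405.3. Liver differed from the other 8 tissues by 0.30 ± 0.07 on the log2 scale, or 1.23-fold (limma adjusted p = 0.00101), and 7 pairs, all with liver on the higher side, passed on p at up to 1.31-fold. No pair reached the size threshold. The second Selp probe set read 118.3 to 183.5, had its highest mean in bone marrow (165.6 ± 22.6) and correlated with the first over 9 tissue means at r = 0.17, so that the order of tissues is not shared by the 2 sets.

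Sele ran from 260.4 to 427.1. It read 373.4, 427.1 and 407.1 in testis, 403.0, 422.8 and 327.0 in lung and 356.7, 397.7 and 363.9 in lymph node, and was lowest in kidney at 320.4, 282.7 and 301.9. Testis differed from the other 8 tissues by 0.26 ± 0.08 (limma adjusted p = 0.00747), and lung by 0.18 ± 0.08 (adjusted p = 0.0671). No pair reached the size threshold, and 8 passed on p at up to 1.34-fold. All Sele and Selp values lay under the human 95th percentile of 590.1, and the human SELE probe set read 62.7 to 127.3.

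The signals of Selp and Sele, at that level, are set here beside the markers of the cells known to hold them. All 6 measured endothelial markers of 9 were called higher in lung, where 8.9% of all genes were, and they included Thbd, thrombomodulin (24.8-fold), Tek, the angiopoietin receptor (14.7-fold), and Icam2, an endothelial adhesion molecule (10.98-fold). In lung Selp differed by -0.03 ± 0.07 and Sele by 0.18 ± 0.08. The 3 measured megakaryocyte and platelet markers of 6 summed to 2307 to 3383 in spleen, 1648 to 1796 in bone marrow and 794.6 to 1534 in the other 7 tissues. In spleen Pf4, platelet factor 4, was 6.01-fold higher, while the other markers measured, Itga2b (0.36 ± 0.17) and Itgb3 (0.06 ± 0.07), were not called. Selp differed there by 0.09 ± 0.07 (limma adjusted p = 0.309). The lymphoid tissues differed from the other 5 by -0.08 ± 0.05 for Selp and 0.0035 ± 0.05 for Sele. The Selp sign changed only with its other probe set, and the Sele sign changed with processing and without single arrays.

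Lymph node and spleen, both secondary lymphoid organs, were set against each other because lymph nodes have high endothelial venules and spleens do not. Glycam1 was 20.0-fold higher in lymph node on its brighter probe set, a log2 difference of 4.32 ± 0.14 (limma adjusted p = 2.43e-17). It was the 1 called gene of the 6, beside 2.44% of all genes called higher and 1.75% lower. The second Glycam1 probe set read 1670 ± 221 in lymph node and 261.1 ± 26.8 in spleen. The lowest log2 difference over all alternatives was 2.67. Chst4 differed by 0.93 ± 0.17, or 1.91-fold (adjusted p = 3.14e-04), and crossed the size threshold without lymph node replicate 3 (1.002). Selplg differed by 0.64 ± 0.16, or 1.56-fold (adjusted p = 0.00516), and Fut7 by 0.54 ± 0.12, or 1.45-fold (adjusted p = 0.00243), both under the size threshold. Selp (-0.14 ± 0.09) and Sele (0.19 ± 0.11) did not pass on p. Between these organs 0 of the 3 venule and stroma markers, 0 of the 4 B cell, 0 of the 2 T cell and 0 of the 6 neutrophil markers were called. Ccl21b was higher by 0.97 ± 0.15 (limma adjusted p = 5.29e-05), and crossed the size threshold under alternatives such as quantile normalization (1.51). Cxcl13 (0.29) and Madcam1 (-0.25) did not pass on p. Of the B cell, T cell and neutrophil markers, Il7r (0.83) and Ccr7 (0.63) passed on p as higher, and Cxcr5 (-0.35) and Siglece (-0.46) as lower. Emcn, of the 6 endothelial markers, was called higher (4.03-fold), and 0 of the 6 were called lower. Cd34 (0.91) and Pecam1 (0.89), also endothelial markers, passed on p as higher, while Icam2 (0.20) did not pass. Pecam1 crossed the size threshold under alternatives such as array weights (1.006). Ccr2, of the 4 macrophage and monocyte markers, was called higher (2.09-fold). Pf4, of the 3 megakaryocyte and platelet markers, was called lower (6.11-fold). The T cell marker sum was 4249 to 5131 in lymph node, against 2457 to 3076 in spleen.

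Over the 36 tissue pairs, the 6 genes had 30 called combinations of 216, near the 16.2% of all combinations of gene and pair, and 86 passed on p. Selplg gave 21, Glycam1 8 and Fut7 1. Across tissues, the closest of the 6 to each other were Glycam1 and Chst4, with r = 0.83 over 9 log2 tissue means, all measured on the same arrays. Glycam1 and Selplg had r = 0.37, and Selp and Selplg r = -0.50. The number of tissues is small and single tissues carry these values.

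Of 29 further genes that build or carry selectin ligands, 19 were on the array. By the F test 13 of them were called, beside 50.1% of all genes, with a median range of 1.47 beside 1.003 over all genes. Fut4, the second alpha1,3-fucosyltransferase of leukocytes, spanned only 1.41-fold (adjusted p = 0.00154) and was not called, and neither were Chst1, B3gnt3, St3gal1, St3gal4 and Madcam1. The list was chosen with results of these data known, and Cd34, Emcn and Madcam1 also stand on the cell marker lists.

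In lymph node against the other 8 tissues, 2 of the 19 were called higher and 1 lower, where 11% of all genes were higher and 0.698% lower. Cd44, a hyaluronan receptor that can also carry E-selectin ligands, was 2.92-fold higher, at a log2 difference of 1.55 ± 0.11 (limma adjusted p = 8.69e-12), at 3549 ± 478 in lymph node. B3gnt5, an N-acetylglucosaminyltransferase that starts lacto-series glycolipids, was higher by 1.29 ± 0.12, or 2.44-fold (adjusted p = 2.81e-09), with 284.4 to 323.3 in lymph node. Fut9, which makes Lewis x, was lower by -1.02 ± 0.20 at 21.6 to 29.1, far below the human median, and lost its call under 10 alternatives. Against spleen, Emcn, a sialomucin of endothelium that can carry L-selectin ligands, was the 1 called gene of the 19, beside 2.44% of all genes called higher and 1.75% lower. It read 480.1 ± 20.6 in lymph node and 119.1 ± 3.1 in spleen, or 4.03-fold (limma adjusted p = 3.50e-09). Cd34 (0.91) passed on p as higher and Gcnt1 (-0.77) as lower.

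In the 4 lymphoid tissues against the other 5, Cd44 was 4.56-fold higher, at a log2 difference of 2.19 ± 0.07 (limma adjusted p = 4.93e-19), and B4galt1, the galactosyltransferase that makes N-acetyllactosamine, by 1.14 ± 0.09, or 2.20-fold (adjusted p = 2.99e-11). Fut9 was lower by -1.12 ± 0.12 and lost its call with a floor of 64 (-0.79) and an offset of 16 (-0.95). The other 16 were not called. Over all genes 10.8% were called higher and 2.62% lower in that contrast, so the 2 of 19 called higher are near the share of the array. Cd44 and Selplg had different orders within those tissues. Cd44 read 6054 ± 1348 in bone marrow, 4244 ± 443 in spleen and 3549 ± 478 in lymph node but 1128 ± 42 in thymus, and 3821 ± 837 in lung, whereas Selplg read 3263 ± 486 in thymus and 656.8 ± 28.0 in lung. The groups overlapped for Cd44, since lung lay above thymus.

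**Figure D4:**
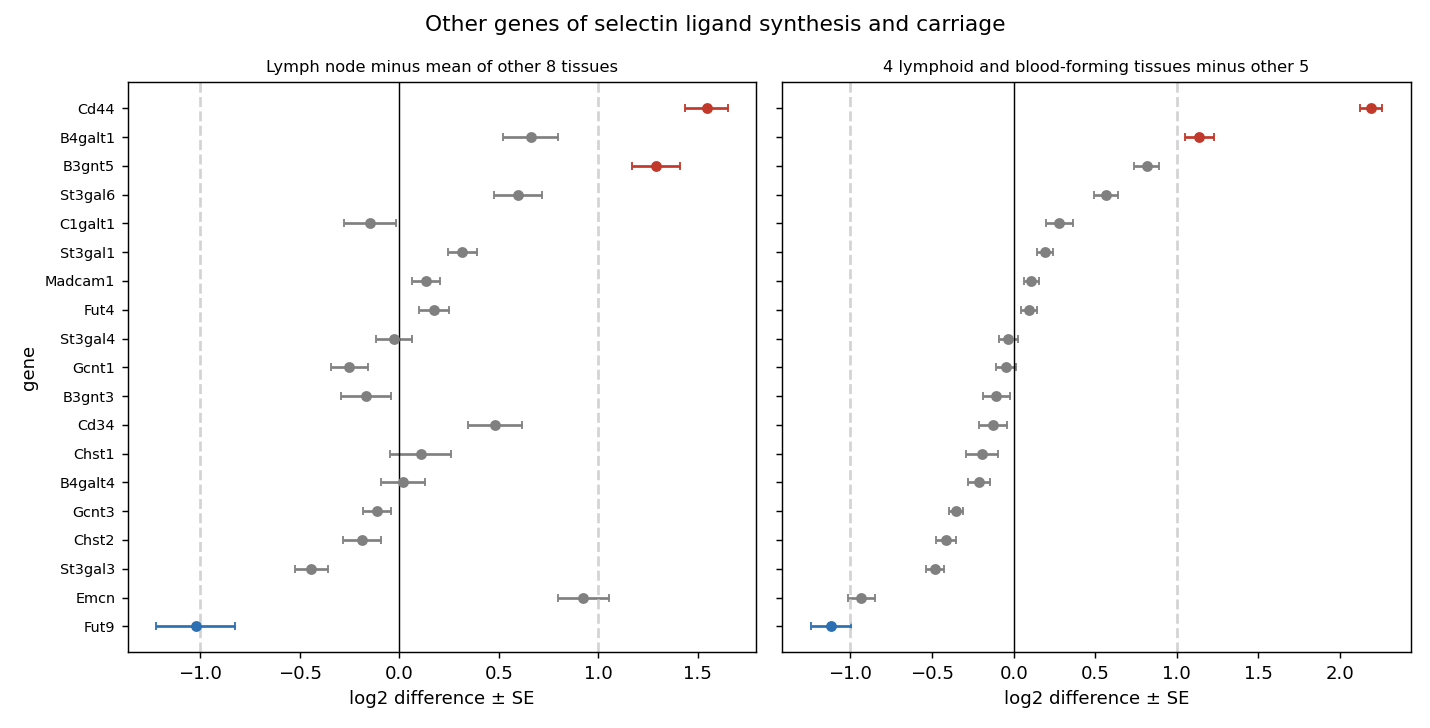
Log2 differences with SE for the 19 further ligand genes measured, lymph node minus the other 8 tissues on the left and the 4 lymphoid tissues minus the other 5 on the right. Red points were called higher, blue lower and grey not called. Cd44 leads both panels (1.55 and 2.19), and Fut9 is the lowest in both (-1.02 and -1.12). Dashed lines mark the size threshold of 1.

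The genes whose tissue pattern was most like a called member were ranked by Pearson r of log2 means over the 9 tissues. For Glycam1 they were Ccl12 (r = 0.98), Ccl8 (0.98), Cd209b (0.93), Cd209e (0.91) and Ccl7 (0.91), which are monocyte-attracting chemokines and C-type lectins of the SIGN family, and all 5 peaked in lymph node. Cd209b read 3743 ± 288 there and Ccl8 3478 ± 1155. For Selplg they were Ltb, a lymphotoxin subunit (0.98), Cd69, a lymphocyte activation marker (0.97), Itgb2, the beta chain of leukocyte integrins (0.96), Il16 (0.95) and Il17ra (0.95). Ltb peaked in lymph node at 5635 ± 543, Itgb2 in bone marrow at 3195 ± 709, and the other 3 in thymus. For Fut7 the values were lower, with Klrc1 (0.89), Clec10a (0.88), Clec4a2 (0.82), Hexa (0.78) and Il18rap (0.77). Klrc1 spanned only 0.27 on the log2 scale, so its likeness rests on small differences, and over the 27 arrays its r was 0.43.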

How the data were processed

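Total RNA was biotin-labelled and hybridised to the array, per the labels. The authors deposited 1 linear intensity per probe set and array, for 1813 probe sets. How they summarised, background-corrected and scaled it is not given in the sources used here. Platform annotation gave 1563 probe sets 1 symbol, 2 several and 248 none.

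Intensities under 16 were raised to 16 (2 values) and log2 taken, and each gene kept the probe set with the highest mean log2 value. limma 3.58.1 in R 4.3.3 was fitted to all 27 arrays with 1 coefficient per tissue, and p-values were adjusted by Benjamini-Hochberg over 573 genes within each contrast. No 2 arrays were identical. The script was tested on simulated data. Named genes were the 6 members, called genes of the ligand list, and for members with a called F test the 5 genes of most similar tissue pattern. Uncalled ligand genes and the cell type markers printed were named beside these after their values were seen. Members and lists were chosen with earlier results of these data known. Replicate numbers were not used as pairs in the main fit. Residuals of same-numbered arrays correlated with a median r of 0.0037 (-0.37 to 0.55), over 0.1 in 25 of 108 pairs. The median was 0.0186 in 216 differently numbered pairs. These values cannot tell whether same-numbered arrays shared an animal. The other probe sets of Glycam1 and Selp were an alternative chosen after seeing the data.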

Additional observations from a re-analysis of the deposited data

How the results depend on the processing

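Other settings were quantile or median scaling, leaving out the dimmest of 3 equal parts of the genes, a floor of 64, an offset of 16, averaged probe sets, other variance settings, the replicate block, the median of the other 8 tissues, and leaving out each array. The replicate block gave the same counts of called members: 3 by the F test, 9 in single tissues, 1 in the lymphoid contrast, 1 for lymph node minus spleen and 30 in pairs. Over all alternatives these were 2 to 4, 8 to 9, 1 throughout, 1 to 2 and 28 to 31. Called genes by the F test ran from 208 to 298. Leaving out arrays gave 1 to 2 called members for lymph node minus spleen, 2 without lymph node replicate 3. Genes called lower in lymph node, 4 in the main setting, were 2 with the dimmest genes left out, a floor of 64 or an offset of 16, 1 with the median reference, and 2 to 4 without single arrays, with 2 without lymph node replicate 1 or 2. Those lower in lymph node than spleen, 10, were 6 with the dimmest genes left out. Near-zero values changed sign: for lymphoid minus other 5, Selp to 0.0357 with its other probe set, and Sele to -0.0379 with quantile normalization, -0.001 with array weights and -0.0189 to 0.0267 without single arrays. Selp in lymph node minus spleen became 0.0045 with its other probe set. Chst4 could not be tested with the dimmest genes left out. The causes were not tested.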

Other observations

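Outside the lymphoid tissues, the ligand genes were called most often in lung, where 5 of 19 were higher and 1 lower, beside 8.9% of all genes higher and 1.05% lower. The galactosyltransferase B4galt4 read 922.1 ± 173.2 in lung, 5.76-fold above the other 8 tissues, and the sialyltransferase St3gal6 read 971.4 ± 195.0, 2.25-fold above them, a call lost when the other 8 were summarised by their median (0.99). The carriers Cd34 (1087 ± 180, 5.54-fold) and Cd44 (3.14-fold) were higher too, and Emcn read 1199 ± 18 (5.32-fold). Fut9 was the lower one, at 22.9 ± 7.2 (2.25-fold), and lost its call under alternatives such as a floor of 64 (-0.50). In liver 4 of 19 were lower, namely Cd34 (3.29-fold), Cd44 (3.07-fold), St3gal6 (2.63-fold) and B4galt4 (2.21-fold), beside 8.9% of all genes. The B4galt4 call was lost when the other 8 were summarised by their median (-0.95).

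In kidney 3 of 19 were higher and 1 lower, beside 6.46% of all genes higher and 6.11% lower. The higher ones were Fut9 at 451.0 ± 80.6 (12.9-fold), Emcn at 1136 ± 172 (4.97-fold) and Gcnt1, which makes core 2 O-glycans, at 943.0 ± 48.5 (2.40-fold). Cd44 was the lower one, at 431.4 ± 21.5 (3.65-fold). In brain 2 of 19 were higher and 2 lower, beside 4.54% of all genes higher and 10.3% lower. Chst2, a sulfotransferase that acts beside Chst4 on L-selectin ligands, read 588.0 ± 44.8 (2.45-fold higher), and Fut9 read 148.3 ± 47.6 (3.60-fold higher), a call lost with a floor of 64 (0.82). B4galt1 was lower at 120.8 ± 28.5 (4.14-fold) and Cd44 at 495.5 ± 23.6 (3.12-fold). In lymph node Chst2 read 238.7 ± 43.9, and 192.6 to 342.2 bounded all arrays outside brain.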
